A study of Homo sapiens with 60 samples.

Results

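The comparison described here was between U2OS Dmr-PERK cells exposed for 2 h to 0.2 nM and to 0.01 nM of the dimerizer AP20187, with 3 libraries at each dose. These 6 libraries were chosen by their sample titles from the 60 of the series. U2OS is an established human osteosarcoma cell line. The line carried a stably expressed fusion of the kinase domain of mouse PERK with a DmrB domain, so that adding the ligand brings 2 copies of the kinase together and activates it. All groups used here carried this construct, the genotype was labelled WT, and whether the line is 1 clone is not given in the sources used here. Per the series' design text, the low dose was picked because protein synthesis was barely reduced while ATF4 protein was still made, and the intermediate dose because it reduced protein synthesis in part. The intermediate dose is called 0.2 nM here, as in the design text, and has 3 decimals in the sample titles. Further values are given beside the comparison where they help in reading it: the same doses at 1 h and 4 h (3 libraries each) and 2 sets of 3 untreated libraries labelled 0 h. No untreated library was labelled 2 h, so the effect of 2 h in the plate without ligand was not measured. The labels say that each condition was measured in triplicate and do not say whether the 3 came from separate cultures. The p-values therefore measure the spread between libraries of a group, which may be technical. That spread was estimated over all 20 groups of the series.

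PERK is one of the kinases that phosphorylate the translation initiation factor eIF2 alpha, and the program that follows is called the integrated stress response (ISR). Bulk translation falls, while mRNAs with suitable upstream reading frames, ATF4 among them, are translated more. ATF4 is a transcription factor that pairs with C/EBP family members and raises genes for amino acid synthesis and import, tRNA charging, redox balance and feedback on eIF2 alpha itself.

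Levels are given as CPM, counts scaled to library size with TMM factors. A gene was called where the adjusted p-value of edgeR's quasi-likelihood test (Benjamini-Hochberg over all 18040 genes tested) was under 0.05. Each fold change compares 0.2 nM with 0.01 nM, on the log2 scale unless written as a fold, with its standard error (SE). The 6 libraries held between 6499223 and 8673096 estimated counts, and 3 counts in the shallowest correspond to 0.462 CPM. Where the mean was at least 20 CPM, the SD over 3 libraries had a median of 4.75% of the mean at 0.01 nM and 4.68% at 0.2 nM. Of 9 osteoblast and mesenchymal markers, SP7 and TWIST1 were at 0 in all 6 libraries, and the summed level ran from 6070 to 6480 CPM at 0.01 nM and from 5730 to 6030 CPM at 0.2 nM. The 8 epithelial markers summed to 1020 to 1060 CPM at 0.01 nM and to 891 to 930 CPM at 0.2 nM, with ESRP1 at 0. Their part in the results was not tested. The 6 endothelial markers summed to at most 5.65 CPM and the 8 blood markers to at most 2.89 CPM in any of the 6 libraries, with HBB and HBA1 at 0. In such bulk samples, fewer cells of a type and less RNA per cell cannot be told apart.

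At 2 h, 1784 of the 18040 genes were called between the doses (9.89%), 997 of them higher at 0.2 nM (5.53%) and 787 lower (4.36%). The median level was 46.2 CPM for genes called higher and 115 CPM for genes called lower, against 17 CPM for all genes tested. The shares over all genes are therefore not matched for level with the gene lists below. Shares of 5.53% higher and 4.36% lower are the ones to set beside each list count at 2 h. The differences were mostly small: 54 genes were at least 2-fold higher (0.299%) and 21 at least 2-fold lower (0.116%). Limma on log2(TPM + 1) called 948 genes higher and 175 lower. It was run on TPM without TMM scaling. Its median log2 fold change over all genes was 0.0451, and 0.052 on log2(TPM + 0.1), against -0.0031 by edgeR. The part of this upward shift in the falls that limma did not call, here and below, was not tested. Leaving out replicate 3 of 0.2 nM left 450 genes lower. Among the well expressed genes with the largest rises were CHAC1, DDIT4, SESN2 and ATF3, all known ISR targets. Genes for ER chaperones and heat shock proteins were among those that fell.

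**Figure D1:**
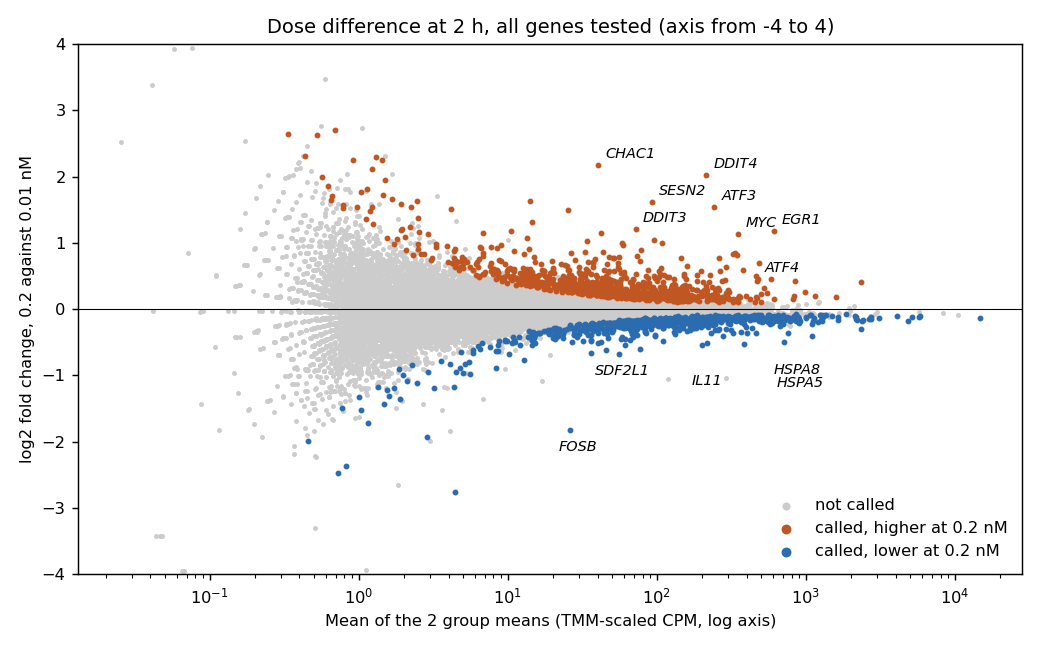
The log2 fold change of each gene between 0.2 and 0.01 nM at 2 h (vertical axis) is plotted against the mean of both group means in TMM-scaled CPM (horizontal log axis), one point per gene, with 38 genes beyond the plotted range. CHAC1, DDIT4 and SESN2 stand highest among the well expressed genes, while HSPA5 and HSPA8 lie below 0.

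CHAC1, an enzyme that degrades glutathione, had 13.9, 14.3 and 15.6 CPM in the libraries of 0.01 nM and 64.6, 65.4 and 68.3 CPM in those of 0.2 nM. The groups did not overlap, as was so for 4280 of all genes tested (23.7%). The rise was 4.52-fold (log2 2.18, SE 0.08, edgeR adjusted p 8.7e-30). DDIT4, an inhibitor of the growth kinase complex mTORC1, measured 87.6, 80.5 and 85.2 CPM at the low dose and 348, 345 and 331 CPM at the intermediate dose. This was a rise of 2.02 (SE 0.06, edgeR adjusted p 1.2e-33), with every library of the higher dose above every library of the lower. SESN2, a stress-induced sestrin that also restrains mTORC1, stood at 49.3, 45.8 and 41.5 CPM against 140, 137 and 139 CPM, a rise of 1.61 (SE 0.06, edgeR adjusted p 6.7e-30). Its 3 low-dose libraries lay within the range spanned by the untreated libraries, whose set means were 49.6 and 34.1 CPM. For CHAC1 and DDIT4, the low-dose libraries were above both untreated sets: untreated CHAC1 averaged 5.66 and 3.17 CPM, and untreated DDIT4 51.3 and 44.5 CPM. Untreated set 1 was of like depth but stood apart in its share of mitochondrially encoded counts, 8.38% to 9.54%, against 4.40% to 4.50% in the deeper set 2 and 4.27% to 4.75% in the 6 libraries of 2 h. The part of this in the values against set 1 was not tested, and both sets are given for CHAC1, DDIT4 and SESN2. CHAC1 was higher by 1.35 at 0.01 nM and by 3.53 at 0.2 nM against set 1, and by 2.19 and 4.36 against set 2. The values for DDIT4 were 0.72 and 2.73 against set 1, and 0.92 and 2.94 against set 2. For SESN2 they were -0.13 and 1.48 against set 1, and 0.41 and 2.03 against set 2. The doses share these untreated libraries, and 42.3% of genes at 0.01 nM and 44% at 0.2 nM were called against set 1.

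**Figure D2:**
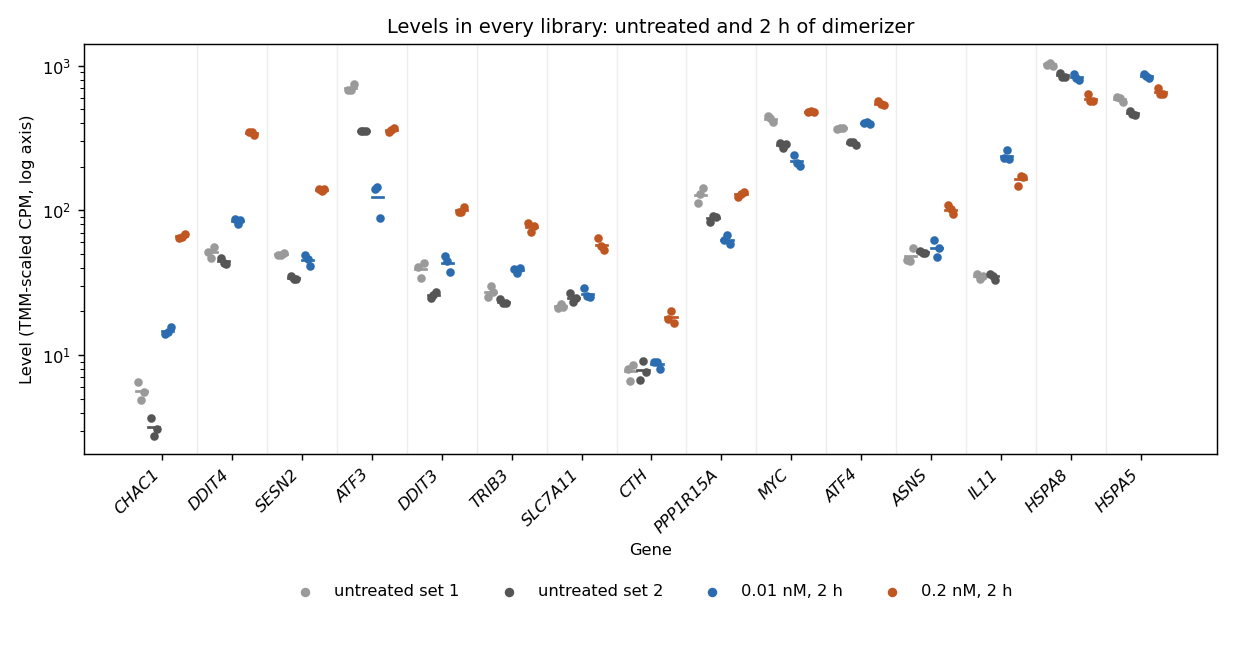
Each point is the level of a gene in one library (TMM-scaled CPM, log axis), with short lines at group means, for both untreated sets and both doses at 2 h. CHAC1, DDIT4 and SESN2 are higher in every library of 0.2 nM than in those of 0.01 nM, IL11, HSPA8 and HSPA5 are lower, and ATF3 at both doses lies below untreated set 1.

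The sequence TGATGNAA (N is any base) is the core of the C/EBP-ATF response element, to which ATF4 and its C/EBP partners bind. It was searched on both strands in RefSeq promoters (GRCh38.p14, 250 bases before to 50 after the start). Of 26 genes, the ISR transcription factors and the 12 largest rises, 7 had no entry and 17 had an entry without the sequence. DDIT4, SESN2, DDIT3, TRIB3, CEBPG and ATF4 were among those 17. Only CHAC1 and ATF3 held the sequence. A further 4 windows, of ASNS, AARS, CARS and MTHFD1L, were chosen after their values were seen, the last because it holds the letters and was not called. Each line gives 32 bases in the direction of the match, with the match in capitals.
CHAC1: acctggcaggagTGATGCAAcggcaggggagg
ATF3: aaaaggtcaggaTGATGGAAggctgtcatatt
ASNS: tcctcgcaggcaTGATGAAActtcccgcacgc
AARS: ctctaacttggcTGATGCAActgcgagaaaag
CARS: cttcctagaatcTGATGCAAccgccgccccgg
MTHFD1L: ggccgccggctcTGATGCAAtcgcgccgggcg

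The windows lie at chr15:40953250-40953281 for CHAC1 and chr1:212565204-212565235 for ATF3, 209 and 191 bases before the start of the gene. The others are at chr7:97872457-97872488 for ASNS, chr16:70289674-70289705 for AARS, chr11:3057406-3057437 for CARS and chr6:150866345-150866376 for MTHFD1L. The letters run on the strand of the gene in ATF3, ASNS and MTHFD1L and on the opposite strand in CHAC1, AARS and CARS. Of all tested genes with an entry, 212 of 11905 promoters (1.78%) held TGATGNAA. It was present in 25 of 794 promoters of genes called higher (3.15%) and in 7 of 615 of genes called lower (1.14%). Among the gene lists, 6 of 13 promoters of cytosolic tRNA synthetases (46.2%), 4 of 11 of amino acid enzymes (36.4%) and 1 of 25 of ER chaperones held it. Further sequences were searched in the same way. TGACGTCA (CRE) was in 4.16% of promoters of genes called higher and 2.76% of genes called lower, beside 3.12% of all. TGACTCA (AP-1) was in 3.53% of promoters of genes called higher and 5.85% of genes called lower, beside 3.41% of all. None of these shares was tested. A match describes letters in this window and no binding was measured.

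Of the 14 transcription factors and regulators listed for the ISR, 11 rose and none fell, with a median of 0.451 against -0.0031 for all genes tested. ATF4 itself had 400, 408 and 394 CPM at 0.01 nM and 568, 541 and 534 CPM at 0.2 nM. Its mRNA rose by 0.45 (SE 0.03, edgeR adjusted p 2.5e-15), a modest change in which the groups were well apart. DDIT3, which encodes the factor CHOP, went from 48.6, 44.4 and 37.5 CPM to 97.2, 97.5 and 106 CPM, a rise of 1.20 (SE 0.08, edgeR adjusted p 7.3e-17). TRIB3 encodes a pseudokinase known to bind ATF4 and CHOP. It had 39.6, 36.7 and 40.2 CPM against 82.3, 71.3 and 77.9 CPM, a rise of 0.99. CEBPG, a C/EBP partner of ATF4, rose by 0.70 and the AP-1 repressor JDP2 by 0.68. Smaller rises were called for NUPR1 (0.51), NFIL3 (0.45), MAFF (0.28), CEBPB (0.26) and MAFG (0.22). The call for CEBPB was lost without replicate 2 of 0.2 nM and that for MAFG without replicate 3 of 0.01 nM. ATF5 (-0.08, edgeR adjusted p 0.69), CEBPD (-0.22, 0.27) and JUND (0.05, 0.64) did not pass the test.

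ATF3, a repressor of the ATF and CREB family, needs its untreated values beside it. It had 140, 145 and 88.3 CPM at 0.01 nM and 348, 361 and 370 CPM at 0.2 nM, a rise of 1.53 (SE 0.08, edgeR adjusted p 2e-22). Replicate 3 of the low dose was the lowest, and without it the rise was 1.33. The mean in untreated set 1 was 701 CPM and in set 2 it was 353 CPM. Relative to set 1, ATF3 was therefore lower at both doses, by -2.50 at 0.01 nM and by -0.96 at 0.2 nM, while the values against set 2 were -1.51 and 0.03. At 1 h the means were 531 CPM at 0.01 nM and 574 CPM at 0.2 nM, and at 4 h they were 19.8 and 106 CPM. At 3 nM and 2 h, in libraries of greater depth, the mean was 857 CPM.

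Among 16 tested kinases, phosphatase subunits and exchange factor subunits of the eIF2 alpha cycle, 2 rose and 2 fell, with a median of -0.0113. PPP1R15A, the inducible GADD34 subunit that directs dephosphorylation of eIF2 alpha, had 62.1, 67.4 and 58.6 CPM at 0.01 nM and 124, 130 and 134 CPM at 0.2 nM. It rose by 1.04 (SE 0.06, edgeR adjusted p 4.4e-19), from a low-dose level that was below untreated set 1 by -1.03 to one that differed from it by 0.02. Against set 2 these values were -0.49 and 0.55. Its constitutive counterpart PPP1R15B rose by 0.26. EIF2AK3, the human PERK gene, had 751, 798 and 773 CPM against 686, 742 and 714 CPM, and fell by 0.12 (SE 0.03, edgeR adjusted p 0.014). Whether reads of the mouse kinase domain are counted there is not given in the sources used here. The catalytic subunit PPP1CA fell by 0.13. Neither fall was called by limma, without a filter, or without replicate 1 or replicate 3 of 0.2 nM, and 1 fall was left without replicate 1 or 2 of 0.01 nM.

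Of 17 genes for amino acid synthesis and one-carbon metabolism, 11 rose and none fell (median 0.328). CTH, which makes cysteine from cystathionine, had 9.01, 8.96 and 7.97 CPM at the low dose and 17.9, 20 and 16.7 CPM at the higher dose. The difference was 1.08 (SE 0.13, edgeR adjusted p 5.3e-09). ASNS, asparagine synthetase, had 62.3, 47.5 and 54.9 CPM against 108, 102 and 94.1 CPM, a rise of 0.89 without overlap. The serine pathway enzymes PSPH and PSAT1 rose by 0.91 and 0.70, and PHGDH, the first enzyme of that pathway, by 0.31. GPT2, a mitochondrial alanine transaminase, rose by 0.80, the mitochondrial folate enzymes ALDH1L2 and MTHFD2 by 0.78 and 0.65, and SHMT2 by 0.33. Among those that did not pass the test were SHMT1 (0.09), MTHFD1L (0.06), PYCR1 (0.11), ALDH18A1 (-0.07) and BCAT1 (0.09).

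Amino acid transporters showed 8 rises and no fall among 12 tested (median 0.265), and 6 rises without replicate 3 of 0.01 nM. SLC7A11, the cystine importer, had 28.9, 25.4 and 25.1 CPM at 0.01 nM and 64.5, 56.3 and 52.9 CPM at 0.2 nM, a rise of 1.14 (SE 0.09, edgeR adjusted p 7.5e-16). Its partner chain SLC3A2, at 215, 214 and 212 CPM against 329, 327 and 303 CPM, rose by 0.58. The neutral amino acid carriers SLC1A4 and SLC1A5 rose by 0.78 and 0.52, and SLC7A5, the leucine carrier that also pairs with SLC3A2, by 0.23. SLC38A2, often described as an ATF4 target, stood at 730 CPM and 752 CPM on average (0.04, edgeR adjusted p 0.49).

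Cytosolic tRNA synthetases gave 10 rises and 1 fall among 20 tested, with a median of 0.148. The number of rises was 8 to 11 with a library of 2 h left out and 7 to 11 under the other alternatives. CARS, the cysteine enzyme, had 99.9, 94.7 and 106 CPM at 0.01 nM and 145, 135 and 141 CPM at 0.2 nM (0.49, SE 0.04, edgeR adjusted p 1.3e-12). Tyrosine, glycine and alanine enzymes followed, with rises of 0.49 for YARS, 0.43 for GARS and 0.42 for AARS. KARS, the lysine enzyme, fell by 0.14, but no fall was called in this list by limma, without a filter, in the 6 libraries alone, or without replicate 2 or 3 of 0.01 nM or any replicate of 0.2 nM. The glutathione and cysteine list had 4 rises and 1 fall of 9 tested: CHAC1, SLC7A11, CTH and CBS rose, and GPX4, a peroxidase that repairs lipids, fell by 0.15. That fall was not called by limma, without a filter, in the 6 or the 39 shallower libraries alone, or without replicate 2 or 3 of 0.01 nM or replicate 1 or 3 of 0.2 nM. The list median was -0.0475, and the 4 genes of glutathione synthesis and recycling (GCLM, GCLC, GSR and GSS) lay between -0.05 and -0.09 and were not called.

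**Figure D3:**
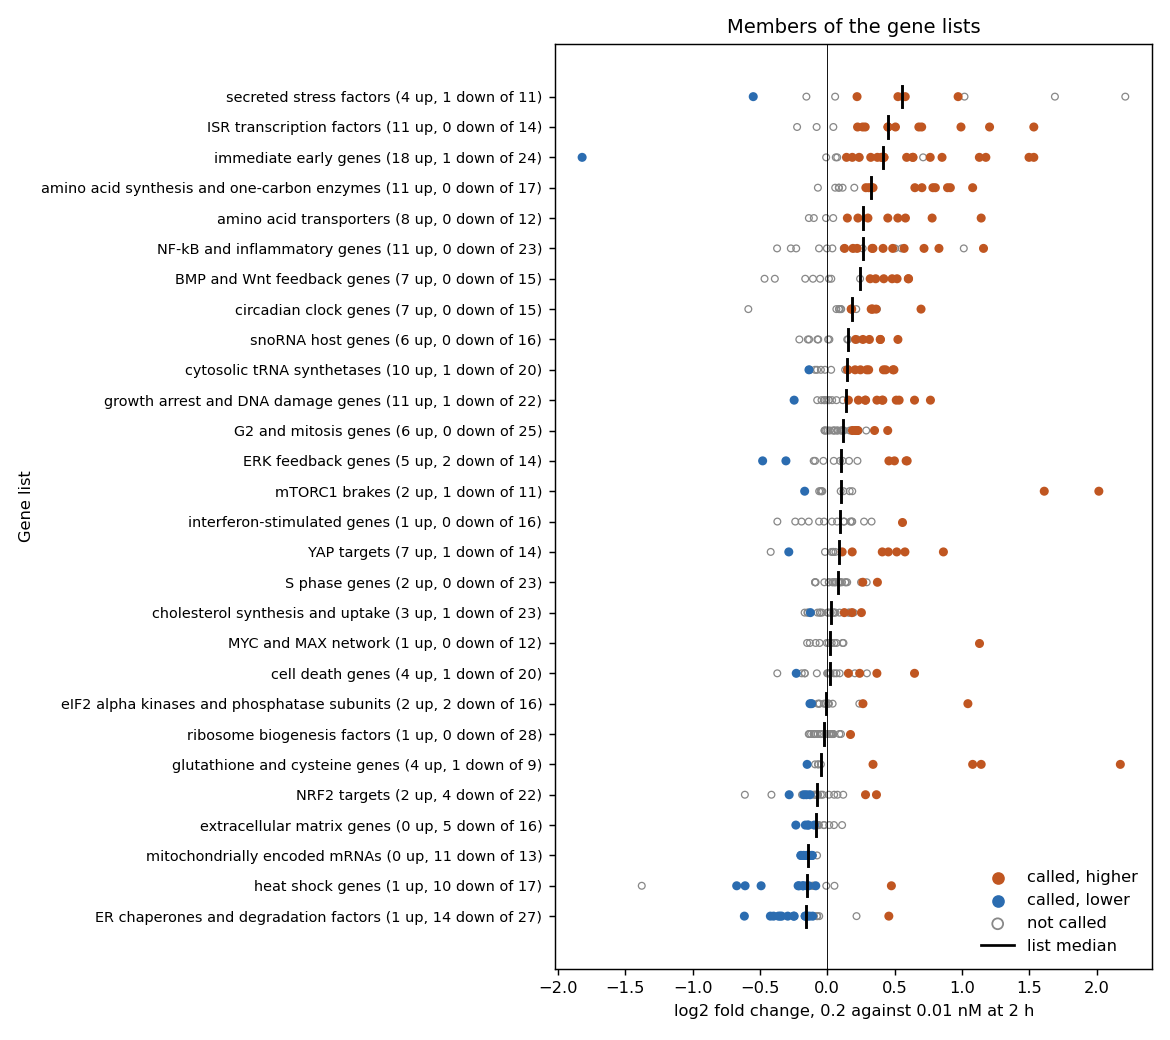
Each point is the log2 fold change at 2 h of one gene of a list, filled where called and open where not, with a bar at the list median; counts of called genes stand beside each name. ISR transcription factors and immediate early genes lie mostly to the right of 0, and ER chaperones, heat shock genes and mitochondrially encoded mRNAs mostly to the left.

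Of 11 genes tested that restrain mTORC1, DDIT4 and SESN2 rose, EIF4EBP2 fell by 0.17, and the other 8 were not called. No fall was called by limma, without a filter, in the 6 libraries alone, or without replicate 3 of 0.01 nM or replicate 1 of 0.2 nM. In the list of secreted stress factors, 4 of 11 rose and 1 fell. ADM2, a peptide hormone of the calcitonin family, had 40, 41.2 and 38.3 CPM at 0.01 nM and 74.7, 82.7 and 77 CPM at 0.2 nM, a rise of 0.97 (SE 0.07, edgeR adjusted p 5.6e-16). GDF15, INHBE and VEGFA rose by 0.58, 0.52 and 0.22. IL11, a cytokine of the IL-6 family, went the other way, with 229, 262 and 225 CPM at the low dose and 148, 172 and 171 CPM at the higher dose. It fell by 0.55 (SE 0.07, edgeR adjusted p 9.9e-09). Both doses were above untreated set 1, by 2.77 at 0.01 nM and by 2.22 at 0.2 nM. Set 1 stood apart in its mitochondrially encoded share, as given above, and values of IL11 against set 2 are not given here. FGF21 and STC2 averaged under 1 CPM at both doses and were not called.

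Immediate early genes, which growth and stress signals switch on without new protein synthesis, gave 18 rises and 1 fall among 24 tested (median 0.414). EGR1 had 420, 401 and 304 CPM at 0.01 nM and 783, 861 and 896 CPM at 0.2 nM, a rise of 1.18 (SE 0.08, edgeR adjusted p 3.8e-18). EGR4 rose 2.82-fold (SE 0.12 on the log2 scale), from 14.4, 15.5 and 9.9 CPM to 32.1, 41.5 and 39 CPM. MYC, a transcription factor that drives growth, had 242, 213 and 203 CPM against 476, 486 and 475 CPM, a rise of 1.13 (SE 0.05, edgeR adjusted p 2.4e-24). JUN rose by 0.85, FOS by 0.64 and IER2 by 0.63. The differences from the untreated libraries depended on the set. The list median at 0.01 and 0.2 nM was -0.975 and -0.729 against set 1, and -0.499 and -0.0783 against set 2. FOS differed by -3.92 and -3.29 from set 1, and by -0.99 and -0.35 from set 2. For EGR1 the values were -2.70 and -1.52 against set 1, and -1.93 and -0.75 against set 2.

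FOSB, a partner of JUN, was the single member that fell. Its low-dose libraries disagreed, with 59.2, 55.7 and 6.56 CPM, against 8.82, 13.1 and 12.4 CPM at 0.2 nM. The groups overlapped, and the difference was -1.82 (SE 0.31, edgeR adjusted p 3.1e-05). Without replicate 3 of 0.01 nM it was -2.35, and limma on log2(TPM + 0.1) did not call it (adjusted p 0.066). The same low-dose library also had the lowest ATF3, EGR1 and EGR4, and without it 14 immediate early genes rose and 1 fell.

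In the NF-kB and inflammatory list, 11 of 23 rose and none fell (median 0.263), and limma on log2(TPM + 0.1) called 7 higher. CXCL8, the neutrophil chemokine interleukin 8, had 219, 254 and 226 CPM at 0.01 nM and 406, 415 and 421 CPM at 0.2 nM, a rise of 0.83 (SE 0.10, edgeR adjusted p 4.1e-09). TRAF1 and the feedback inhibitors TNFAIP3 and NFKBIA rose by 0.72, 0.57 and 0.49. TNF, at a low level of 1.14 to 2.06 CPM against 3.13 to 3.98 CPM, rose by 1.16. Of 16 interferon-stimulated genes, IRF1 alone was called, with a rise of 0.55.

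Feedback genes of ERK signalling gave 5 rises and 2 falls of 14 tested, and 3 rises without replicate 3 of 0.01 nM or replicate 2 of 0.2 nM. The phosphatase DUSP1 and the EGFR inhibitor ERRFI1 rose by 0.59 and 0.50, while SPRY2 and DUSP7 fell by 0.48 and 0.31. Of 14 YAP targets, 7 rose and 1 fell, the fall being lost by limma and without replicate 3 of either dose. The scaffold AJUBA, with 158, 156 and 162 CPM against 244, 227 and 241 CPM, rose by 0.58, AMOTL2 by 0.52 and ANKRD1 by 0.45. The list of BMP and Wnt feedback genes had 7 rises and no fall of 15 tested, with rises of 0.60 for ID4, 0.52 for NOG and 0.42 for ID1. This list had 5 to 7 rises with a library of 2 h left out. None of its Wnt targets AXIN2, RNF43, ZNRF3, NKD1 and LEF1 was called by edgeR, with values from -0.47 to 0.01. Of 15 clock genes, 7 rose and none fell, led by the repressor NR1D1 (0.70), and limma called 3 higher on log2(TPM + 1) and 2 on log2(TPM + 0.1).

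Of 22 genes listed for growth arrest and the response to DNA damage, 11 rose and 1 fell. GADD45A had 213, 190 and 177 CPM at 0.01 nM and 337, 329 and 316 CPM at 0.2 nM, a rise of 0.77 (SE 0.06, edgeR adjusted p 4.7e-16). The proapoptotic BBC3 and PMAIP1 rose by 0.65 and 0.37, CDKN1A, a cell cycle inhibitor, by 0.28, and ZMAT3 fell by 0.25, a fall that limma did not call. In the cell death list 4 of 20 rose (BBC3, PMAIP1, MCL1 and TNFRSF10B) and BAK1 fell. That fall was not called by limma, without a filter, in the 6 or the 39 shallower libraries alone, or without replicate 2 or 3 of either dose. Of 16 snoRNA host genes 6 rose, led by SNHG8 (0.52), and of 28 ribosome biogenesis factors WDR75 alone was called (0.17), a call lost under 12 of 17 alternatives, among them 5 of the 6 that left out a library of 2 h. In the MYC and MAX network MYC alone was called of 12. For 23 S phase genes there were 2 rises, CDT1 and CDC6, and at most 1 when any of the 6 libraries was left out. For 25 genes of G2 and mitosis there were 6, among them TTK (0.45) and AURKA (0.35), and 2 without replicate 2 of 0.01 nM or replicate 3 of 0.2 nM. Cholesterol genes had 3 rises and 1 fall of 23, and 1 rise without replicate 2 of 0.01 nM or by limma. The fall was lost by limma and without replicate 1 or 3 of 0.01 nM. Over all genes tested, 5.53% were called higher and 4.36% lower. A single call in a list of 20 to 28 genes is near these shares.

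ER chaperones and degradation factors, which fold proteins in the ER or remove those that fail, gave 14 falls and 1 rise among 27 tested (median -0.159). HSPA5, the main ER chaperone BiP, had 872, 849 and 825 CPM at 0.01 nM and 702, 638 and 639 CPM at 0.2 nM. It fell by 0.36 (SE 0.03, edgeR adjusted p 6e-12), with no overlap. SDF2L1, a cofactor of BiP, had 55.2, 56.1 and 54.1 CPM against 37.8, 36.4 and 33.2 CPM, a difference of -0.62 (SE 0.08, edgeR adjusted p 7.6e-08). DNAJB9 and DNAJC3, further BiP cofactors, fell by 0.42 and 0.40, and HSP90B1 by 0.25. The single rise was that of XBP1 (0.46), which encodes a regulator of ER chaperone genes, from 130, 136 and 128 CPM to 186, 181 and 173 CPM. Against untreated set 1, HSPA5 was higher at both doses, by 0.53 at 0.01 nM and by 0.16 at 0.2 nM. Its values against set 2 are not given here. At 3 nM the mean of HSPA5 at 2 h was 524 CPM. The list median at 0.01 and 0.2 nM was 0.246 and -0.0866 against set 1, and 0.346 and 0.139 against set 2. Limma on log2(TPM + 1) called 7 members of this list lower and 1 higher.

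Heat shock genes showed 10 falls and 1 rise among 17 tested (median -0.152). HSPA8, the constitutive cytosolic HSP70, had 880, 824 and 791 CPM at 0.01 nM and 634, 567 and 572 CPM at 0.2 nM, a difference of -0.49 (SE 0.04, edgeR adjusted p 3.4e-14). The inducible HSP70 genes HSPA1A and HSPA1B, near-identical copies whose reads the estimation can share out, fell by 0.61 and 0.67. HSF2, a heat shock transcription factor, rose by 0.48. Without replicate 1 of 0.01 nM 6 of these genes fell, and limma on log2(TPM + 1) called 4 lower and did not call HSF2. Beside 5.53% of all genes called higher and 4.36% lower, NRF2 targets had 2 rises and 4 falls of 22. NFE2L2 itself rose (0.28) and PRDX1 was at -0.28. Without replicate 1 of 0.01 nM there were 2 falls, without replicate 2 of that dose 1 rise, and by limma 1 rise and 2 falls. In the extracellular matrix list 5 of 16 fell and none rose, led by COL6A1 (-0.23). Limma on log2(TPM + 1) called 1 lower, and the count was 3, 1, 2 and 2 without replicates 2 and 3 of 0.01 nM and replicates 1 and 3 of 0.2 nM.

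Of 13 mitochondrially encoded mRNAs 11 fell, by small amounts between 0.11 and 0.20 (median -0.145 over all 13). The dose difference was already there at 1 h, when 11 of the 13 were called lower with a median of -0.241. For none of them was the change in dose difference from 1 to 2 h called. MT-ND1 had 2507, 2517 and 2489 CPM at 0.01 nM and 2229, 2201 and 2213 CPM at 0.2 nM. Without replicate 2 of 0.01 nM 6 fell, and without replicate 2 of 0.2 nM 7. The share of counts from these mRNAs was 4.69% ± 0.056 (SD, n = 3) at 0.01 nM and 4.35% ± 0.067 (SD, n = 3) at 0.2 nM. The groups did not overlap, and the two-sided exact permutation p was 0.1, the smallest that 3 against 3 allows. Limma on log2(TPM + 1) called none of the 13, with 7 lower at an unadjusted p under 0.05, while DESeq2 called 12 lower.

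By the rule of largest change, the 12 largest rises were, besides CHAC1, DDIT4 and SESN2, genes of low level. RGR, an opsin, averaged under 1 CPM at 0.01 nM and had 1.62, 1.83 and 1.07 CPM at 0.2 nM (2.25, SE 0.57, edgeR adjusted p 0.0055). ZNF442, a zinc finger gene, rose by 2.12 from 0.572, 0.134 and 0.643 CPM. The pseudogenes CLUHP4 (2.29), CLUHP10 (1.95), DUX4L19 (1.81), SPATA31C1 (1.66), ASNSP1 (1.63) and DUX4L26 (1.59) share sequence with other loci, and so does SPATA31E1 (1.70), so their estimated counts are uncertain. Of the 12, the calls for CLUHP10 and DUX4L26 were each lost under 2 of 17 alternatives that gave a value, and that for SPATA31E1 under 8 of 13.

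The 12 largest falls were all at 12.7 CPM or lower in every library of the low dose. KCNF1, a potassium channel subunit, had 4.15, 7.22 and 6.68 CPM at 0.01 nM and 2.32, 3.27 and 2.45 CPM at 0.2 nM, a difference of -1.17 (SE 0.24, edgeR adjusted p 0.00058). SOX8, a transcription factor, differed by -0.98, ZNF799 by -1.35 and the antisense gene SSBP3-AS1 by -2.47. These 4 were called under each alternative that gave a value. The others, whose calls were lost under several alternatives, were MINOS1-NBL1 (-2.76, a readthrough gene that overlaps its neighbours), TCEA1P2 (-2.37), GCSHP5 (-1.93), ZSWIM5 (-1.49), NR0B1 (-1.43), LRRC69 (-1.19), AADAC (-1.17) and MYO1F (-1.11). The loss was under 11 of 15 for AADAC, 9 of 13 for ZSWIM5, and 8 of 13 for TCEA1P2 and LRRC69. It was under 8 of 15 for GCSHP5, 7 of 15 for NR0B1, 6 of 17 for MINOS1-NBL1 and 5 of 15 for MYO1F.

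At 1 h, 137 genes were called between the doses (0.759%), 62 higher (0.344%) and 75 lower (0.416%). At 4 h, 4324 were called (24%), 2460 higher (13.6%) and 1864 lower (10.3%). The dose difference at 2 h was then set against that at 1 h and at 4 h by testing its change. From 1 to 2 h, 225 genes changed in dose difference (1.25%), 183 upward (1.01%) and 42 downward (0.233%). DDIT4 differed between the doses by 0.50 at 1 h and 2.02 at 2 h, a change of 1.52 (edgeR adjusted p 3.5e-16). SESN2 went from 0.26 to 1.61 and ATF3 from 0.11 to 1.53. CHAC1 already differed by 1.31 at 1 h, and its change of 0.86 was called (edgeR adjusted p 0.01). For TRIB3 and ASNS the difference at 1 h was 0.02 and -0.09, neither called, and the change to 2 h was called for both (0.97 and 0.98). Upward changes covered 9 of 14 ISR transcription factors, 8 of 17 amino acid enzymes, 8 of 20 tRNA synthetases and 13 of 24 immediate early genes. Downward changes covered 5 of 27 ER chaperones and 3 of 17 heat shock genes.

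**Figure D4:**
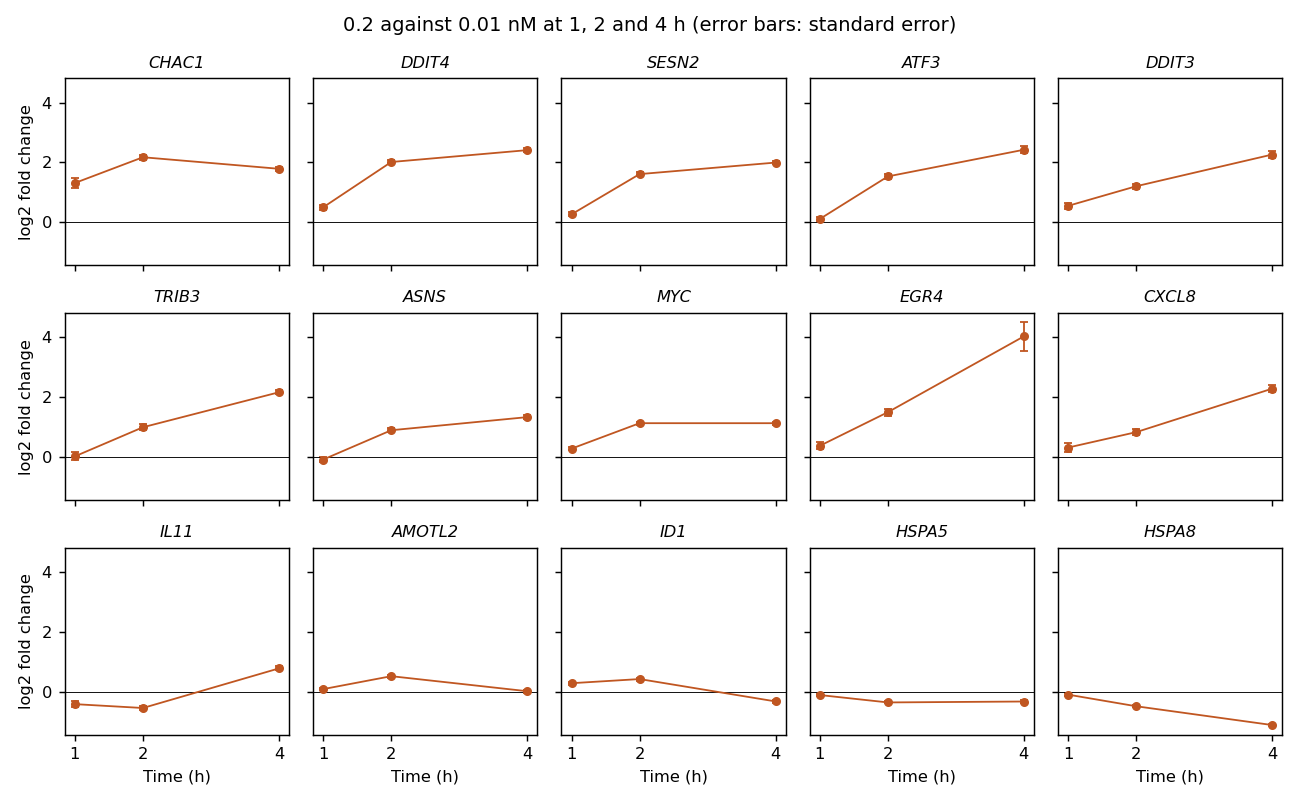
The log2 fold change between 0.2 and 0.01 nM is plotted against time (1, 2 and 4 h) for 15 genes, with standard errors as bars. DDIT3, TRIB3 and ATF3 have larger values at each later time, CHAC1 is highest at 2 h, IL11 changes sign between 2 and 4 h, and HSPA8 moves further down.

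From 2 to 4 h, 1285 genes changed in dose difference (7.12%), 827 upward (4.58%) and 458 downward (2.54%). For CHAC1 the difference became smaller, from 2.18 to 1.79 (change -0.39, SE 0.12, edgeR adjusted p 0.027). It grew for DDIT3 from 1.20 to 2.27, for TRIB3 from 0.99 to 2.16 and for CXCL8 from 0.83 to 2.29. MYC stayed at 1.13 at both times. IL11 turned from -0.55 to 0.78, a change of 1.33 (SE 0.10, edgeR adjusted p 4.8e-16). HSPA5 kept a similar value (-0.36 and -0.33, adjusted p of the change 0.82), and HSPA8 went from -0.49 to -1.12. Upward changes covered 13 of 17 amino acid enzymes, 11 of 23 NF-kB genes and 11 of 28 ribosome biogenesis factors, a list with 1 call at 2 h. Downward changes covered 5 of 14 YAP targets, 6 of 15 BMP and Wnt feedback genes, 8 of 23 S phase genes and 5 of 25 genes of G2 and mitosis. ID1, which was 0.42 higher at 2 h, was 0.33 lower at 4 h (log2 -0.33), and AMOTL2 went from 0.52 to 0.01. The comparisons at 2 h and of change share the 6 libraries of 2 h.

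For some genes the levels at the 3 nM dose at 2 h, in libraries of 23797329 to 24595927 counts, stood near those at 0.2 nM. CHAC1 had a mean of 66.1 CPM at 0.2 nM and 63.9 CPM at 3 nM, DDIT4 341 and 311 CPM, and SESN2 139 and 130 CPM. MYC and ATF3 had higher means at 3 nM, with 479 and 684 CPM for MYC. These values are given side by side and were not tested.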

How the data were processed

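RNA was measured in 60 libraries of 20 groups of 3, and the 6 described here are both lower doses at 2 h (0.2 nM is 0.195 nM in the sample titles). The authors deposited estimated counts per gene, which were rounded to whole numbers here, and TPM per gene, a deposited table that gives the symbols. Salmon 0.9.1, FastQC 0.11.5 and GRCh38 are named in the submitters' processing notes; their roles and the annotation release are not given. Among 57665 deposited genes, 57068 matched GENCODE 29, from which gene types were taken.

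Counts were tested with edgeR 4.0.16 (R 4.3.3): TMM scaling, filterByExpr, one mean per group over all 60 libraries (40 residual degrees of freedom) and quasi-likelihood tests, with Benjamini-Hochberg adjustment over 18040 genes. The SE is the size of the log2 fold change divided by the square root of F. The script was tested on simulated data. Depth over the series ran from 5598803 to 10367667 counts in 39 libraries and from 20713981 to 28436445 in 21, so the 6 are among the shallower ones. Alternatives were other size factors and filters, subsets of libraries, a replicate block, limma 3.58.1 on log2(TPM + 1 or 0.1), DESeq2 1.42.0 and leaving out each library.

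Named genes were the 12 largest called rises and falls (at least 1 CPM in the higher group, groups not overlapping, short structural RNAs and clone names left out), the 2 members of each list with the lowest p, all ISR transcription factors and the 4 largest changes in each direction of the changes with time. These changes with time were taken only from genes that were also called between the doses at 2 h. Further members named from the lists were chosen after their values were seen. The comparison and the lists were chosen with earlier results of these data known. Some members of the lists are not reported here by name.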

Additional observations from a re-analysis of the deposited data

Results flagged for a closer look

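The results below are those whose difference between the doses itself differed between times, by edgeR's quasi-likelihood test of the change. Genes are named here only if they were also called between the doses at 2 h. A called difference at 2 h was thus part of the choice, and the change is measured through the same 2 h libraries. From 1 to 2 h, 225 genes changed, and from 2 to 4 h 1285 genes changed.

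Between 1 and 2 h, the log2 dose difference of the mTORC1 inhibitors DDIT4 and SESN2 grew by 1.52 and 1.35, that of the repressor ATF3 by 1.42, that of the early gene EGR4 by 1.13 and that of SHISA2 by 1.67. It moved down for SSBP3-AS1 (-3.02), MYO1F (-1.81), C7orf25 (-1.42) and SOX2 (-1.22), all at under 8 CPM in each of the 6 libraries of 2 h.

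Between 2 and 4 h, the difference grew for the stress regulators DDIT3 (1.06) and TRIB3 (1.17), the cytokines IL11 (1.33) and CXCL8 (1.46), the EGFR inhibitor ERRFI1 (1.23) and EGR4 (2.54). IL11 was lower at 0.2 nM at 2 h and higher at 4 h. Upward changes in genes of low level were found for ZSWIM5 (2.23), ARL14 (2.22), LRRC69 (1.99) and SOX8 (1.19). The difference moved down for ZNF256 (-1.90), TMEM236 (-1.86), PRICKLE2 (-1.20), a planar polarity gene, and FZD2 (-1.19), a Wnt receptor. PRICKLE2 and FZD2 were higher at 0.2 nM at 2 h, by 0.38 and 0.36, and had log2 differences of -0.82 and -0.82 at 4 h. The call at 2 h was lost under 7 of 17 alternatives for PRICKLE2 and under none for FZD2. Of the alternatives that gave a value, it was lost under 9 of 15 for TMEM236 and 9 of 13 for ZSWIM5. For SOX2 it was lost under 8 of 15, for LRRC69 under 8 of 13, and for ARL14 and MYO1F under 5 of 15 each. For C7orf25 it was lost under 3 of 17, and for the other genes named in this section under none. The calls of the changes themselves also depended on single libraries. Among the 8 largest changes from 1 to 2 h (4 in each direction), 1 or 2 calls were lost without any 1 library of 1 h. Among the 8 largest from 2 to 4 h, 0 to 2 calls were lost without 1 library of 4 h.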

How the results depend on the processing

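The 1784 calls became 1123, 1071 and 1012 with limma on log2(TPM + 1), log2(TPM + 0.1) and log2(TPM + 1) without a filter, with 175, 158 and 222 genes lower in place of 787; without a filter on low counts 523 were lower. Leaving out each library in turn left 450 to 631 lower. Changes from 1 to 2 h were 144 and 127, and from 2 to 4 h 657, 635 and 566, by limma in the same order. No gene called by both had the opposite sign. Whether the number of a replicate pairs the libraries was left undecided. Deviations of same-numbered libraries correlated by 0.161, 0.0551 and -0.0341, and those of other pairs by -0.133 to 0.0829. With a replicate block 1817 genes were called, and within the 6 libraries alone 1538 with and 1295 without the block. The share of mitochondrially encoded mRNAs differed by -0.34 percentage points in counts and by -0.52 in summed TPM.

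List medians, less the median of all genes, moved as follows. By limma on log2(TPM + 1) with and without a filter, and on log2(TPM + 0.1), they were 0.297 and 0.291 for BMP and Wnt feedback genes (0.247 by edgeR), -0.0606 and -0.0679 for MYC and MAX (0.0246), 0.137 and 0.134 for YAP targets (0.0886), -0.0479 and -0.0546 for matrix genes (-0.079), 0.099 and 0.0955 for glutathione genes (-0.0444), 0.2 and 0.197 for mTORC1 brakes (0.103), 0.21 and 0.215 for arrest and damage genes (0.139), 0.289 and 0.47 for secreted factors (0.554), and 0.257 and 0.256 for snoRNA hosts (0.155); interferon genes gave 0.0228 on log2(TPM + 1) (0.1). At a mean of at least 5 CPM they were 0.284 for BMP and Wnt, 0.225 for NF-kB (0.266) and 0.0442 for mTORC1 brakes. In the 6 libraries alone, without and with the block, they were 0.286 and 0.291 for BMP and Wnt and 0.376 and 0.372 for secreted factors. Leaving out each library gave 0.101 to 0.342 for BMP and Wnt, -0.189 to -0.133 for ER chaperones, 0.0303 to 0.142 for ERK feedback, 0.415 to 0.512 for ISR factors, 0.247 to 0.291 for NF-kB, 0.0629 to 0.145 for YAP, 0.152 to 0.237 for clock genes, -0.0785 to 0.0805 for glutathione genes, 0.126 to 0.169 for arrest and damage genes, 0.45 to 0.735 for secreted factors and 0.116 to 0.178 for snoRNA hosts. Signs turned for the glutathione list (0.0805 without replicate 1 of 0.01 nM), MYC and MAX (-0.00289 without replicate 3 of 0.01 nM, -0.0147 without replicate 2 of 0.2 nM), the eIF2 alpha list (-0.008 to 0.00164 and 0.0146 without replicates 1 and 2 of 0.01 nM and 0.00544 without replicate 2 of 0.2 nM), ribosome biogenesis (-0.02 to 0.0116 without replicate 1 of 0.01 nM and 0.00223 without replicate 3 of 0.2 nM), cell death genes (0.024 to -0.0054 by limma on log2(TPM + 0.1)), mTORC1 brakes (-0.0136 to 0.163; the lowest without replicate 1 of 0.01 nM), interferon genes (-0.0306 to 0.102; without replicate 2 of 0.2 nM) and JUND (-0.0 to 0.09; without replicate 2 of 0.2 nM). The causes were not tested. At these depths, differences in genes near 1 CPM rest on few counts.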

Other observations

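Genes with symbols that begin with ZNF, most of which encode zinc finger transcription factors, were looked at after their values were seen. Of 484 such genes tested at 2 h, 73 were higher at 0.2 nM (15.1%) and 3 lower (0.62%), beside 5.53% and 4.36% of all genes, and their median log2 fold change was 0.18. Examples are ZNF697, at 188 ± 1.18 CPM (SD, n = 3) at 0.01 nM and 268 ± 6.88 CPM (SD, n = 3) at 0.2 nM, and ZNF12, at 46.3 and 67.6 CPM. At 1 h 4 were higher (0.826%, beside 0.344% of all genes) and none lower, and at 4 h 85 were higher (17.6%, beside 13.6%) and 15 lower (3.1%, beside 10.3%). Their median was already 0.13 at 1 h and was 0.12 at 4 h. The change in dose difference from 1 to 2 h was called upward for 4 (0.826%, beside 1.01% of all genes) and downward for 1 (0.207%, beside 0.233%). Across the alternatives, 35 to 83 were called higher and 1 to 5 lower at 2 h.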
